A study of Drosophila melanogaster with 12 samples.

Results

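The genes described here are 10 genes that the Drosophila embryo transcribes from its own genome at or just before the blastoderm stage: bnk, Bsg25A, Elba3, Tom, CG10035, halo, tll, sna, prd and gt. They were taken by symbol from a table of 17714 gene rows, and all 10 were found. The set was assembled because genes of this kind stood out as lower in young Ptth mutants than in young wild-type flies in these same libraries, so the levels of the members in the young groups are a description and carry no test. RNA from whole adult females of 2 genotypes and 2 ages had been sequenced, in 4 groups of 3 libraries, each from pooled flies. The labels call the wild type wOB and the mutant ptth120BC2. The mutant is of Ptth, the gene of the prothoracicotropic hormone, the brain hormone that prompts the gland of the larva to make the moulting steroid ecdysone. The study describes a null allele of Ptth with a small deletion, under another allele name than the label, so the lesion of the labelled allele is not given here. Young flies were 1 week old and old flies 5 weeks old, and the labels name no treatment. The values are normalised counts, that is reads per gene divided by a size factor of the library, from which the whole reads were recovered.

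An embryo of the fly begins development on RNA and protein that its mother loaded into the egg. Its own genome is switched on in waves while the nuclei still divide in a common cytoplasm, and the genes of the first wave are mostly short and poor in introns, which suits the brief interphases of that stage. They drive the formation of cells at the blastoderm and lay out the axes of the body. The transcripts are short-lived, and most of these genes are known as zygotic, not as part of the maternal load that the ovary of an adult female prepares.

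The known roles of the members are of several kinds. bnk (bottleneck) acts on the actin network that closes around the nuclei as cells form, and halo acts on the transport of lipid droplets at the same stage. Bsg25A, which later annotations call Elba1, and Elba3 encode subunits of the Elba complex, an early insulator-binding factor that also contains Elba2. Tom is a Bearded family protein, an antagonist of the ubiquitin ligase Neuralized in Notch signalling. tll is the terminal gap gene and encodes a nuclear receptor, gt is a gap gene for a bZIP repressor, sna encodes the zinc-finger repressor of the presumptive mesoderm, and prd is a pair-rule gene with a paired domain and a homeodomain. No role is given here for CG10035.

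Depth lay between 16448805 and 28206866 reads per library, and a library with 0 reads of a gene could hold up to 3, which is 2.39 to 3.97 normalised counts depending on the library. The yolk protein genes Yp1, Yp2 and Yp3 and the yolk receptor gene yl, which mark adult females, were present in all 12 libraries with a summed level of at least 349931 normalised counts. Transcripts of the male tract and testis were also present in 3 young libraries labelled female. A list of 28 male genes summed to 6918 and 21402 in young wild type replicates 1 and 2, and to 7797 in young mutant replicate 1, with 26 or 27 of the 28 detected. In the other 9 libraries the sum was 51.8 to 221 with 12 to 21 detected, and wild type young replicate 3, at 182 with 12 detected, was the young wild type library without this signal. Ptth itself, whose RNA a small deletion need not remove, had 25.5 to 39.9 normalised counts in the young wild-type flies and 18.5 to 28.3 in young mutant flies, ranges that overlapped. It had 75.3 to 76.8 in old wild-type flies and 43.6 to 58.6 in old mutant flies, and these values are given without a test.

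Across the 12 libraries 8 of the members were high in young wild-type flies and at or near 0 elsewhere, gt was detected in every library, and prd was high in only 2 of the young wild type libraries and in 1 young mutant library. Summed over the 10 genes they had 715, 1038 and 422 normalised counts in the 3 young wild type libraries, which came from 586, 1302 and 430 reads. The sums were 45.9, 14.1 and 16.3 in young mutant flies, 21.5, 21.9 and 30.5 in old wild-type flies, and 15.8, 22.9 and 22.6 in old mutant flies. As RPM (reads per 1000000 reads of the library) this was 19.4 to 46.2 in young wild-type flies and 0.625 to 2.05 in the other 9 libraries, and no library of another group came near the lowest young wild type library. In bulk RNA of whole bodies, fewer cells of a type and less RNA per cell cannot be told apart.

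**Figure D1:**
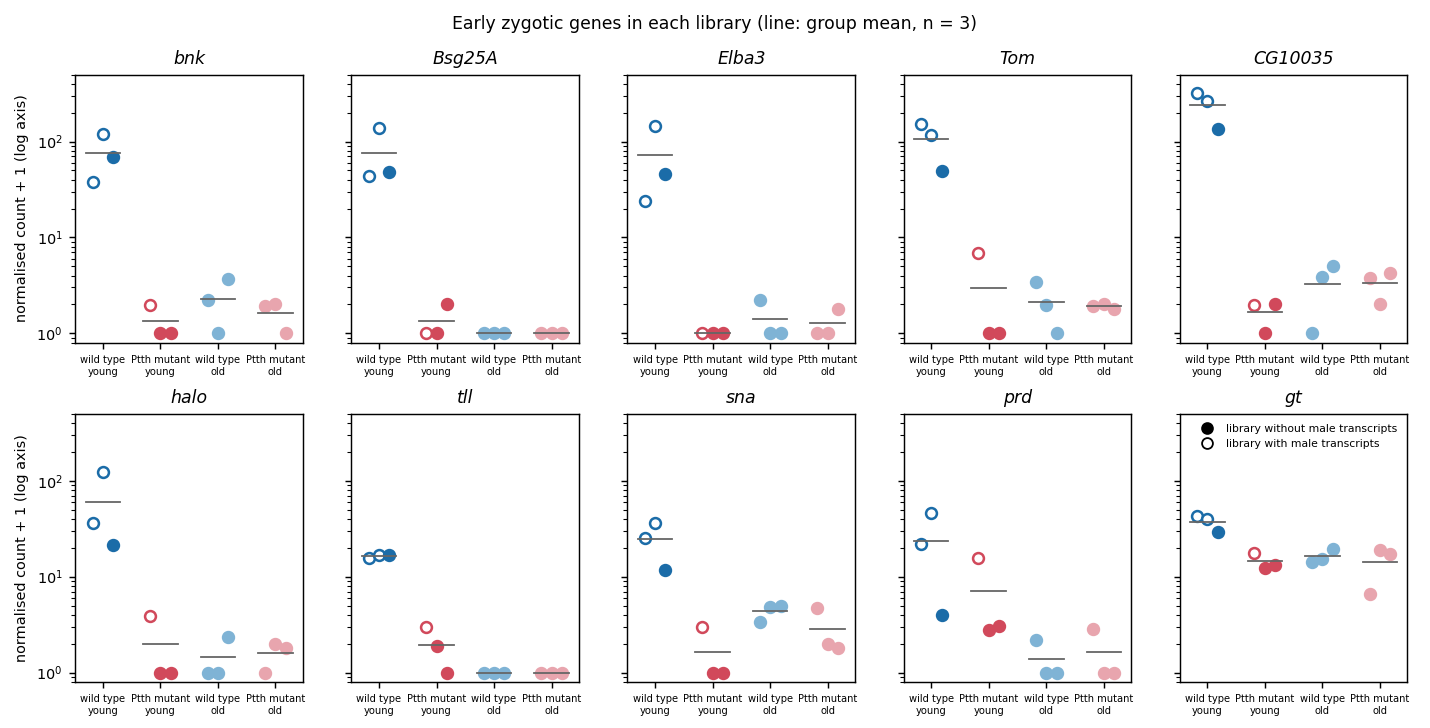
Normalised count plus 1 (log axis) of each of the 10 genes in every library, by group, with 3 libraries a group. Lines mark group means, and open circles mark the 3 libraries with male transcripts. The young wild type circles lie above all others for 9 of the 10 genes, as they do for 2.75% of all tested genes, and for prd the library without male transcripts lies low.

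The genes of cellularisation come first. In young wild type replicates 1, 2 and 3 the normalised count of bnk was 36.6, 118 and 67.8. In young mutants it had 0.977, 0 and 0, in old wild-type flies 1.19, 0 and 2.65, and in old mutant flies 0.931, 0.996 and 0. The 9 libraries outside young wild type thus held at most 2 reads of bnk each. With reads pooled over the libraries of a group, the young wild type level was 251 times that of young mutants, where a single read was counted (95% exact counting interval 44.7 to 9964), and 70.3 times that of old wild type (23.8 to 343). Such intervals cover counting error only and leave out the spread among libraries.

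halo had 35.4, 122 and 20.6 normalised counts in the young wild-type flies. It had 2.93, 0 and 0 in young mutant flies, 0, 0 and 1.32 in old wild-type flies, and 0, 0.996 and 0.807 in old mutant flies. The 3 reads in young mutant flies all came from replicate 1, the mutant library with male transcripts. The pooled level of young wild type was 68.8 times that of young mutants (23.2 to 337).

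Both Elba genes were nearly undetected outside young wild type. Bsg25A had 42.7, 137 and 47.2 normalised counts in the young wild-type flies, and a single read, in mutant young replicate 3, in all the other libraries together. Elba3 had 23.2, 144 and 45.2 in young wild-type flies, and 1 read each in wild type old replicate 1 and mutant old replicate 3. The level of Elba3 in young wild-type flies was 83.1-fold higher than in young mutant flies, taking 3 reads over that group as the floor. The lower end of its exact counting interval was 67.1. On the same floor Bsg25A was 72.6-fold higher in young than in old wild-type flies, and the lower end of its interval was 58.6. The third subunit gene behaved otherwise: Elba2 had between 1262 and 2007 normalised counts in all 12 libraries, lowest in wild type young replicate 2.

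Per length, Tom and CG10035 stood highest of the members in replicate 1 of young wild type. By normalised count Tom had 153, 117 and 48.1 normalised counts in the young wild-type flies, 5.86, 0 and 0 in young mutant flies, 2.39, 0.954 and 0 in old wild-type flies, and 0.931, 0.996 and 0.807 in old mutant flies. The pooled young wild type level of Tom was 54.4 times that of young mutants (24.7 to 149). CG10035 had 323, 266 and 136 in young wild-type flies, 0.977, 0 and 1.02 in young mutant flies, 0, 2.86 and 3.97 in old wild-type flies, and 2.79, 0.996 and 3.23 in old mutant flies. Its pooled young wild type level was 374 times that of young mutants (103 to 3097) and 105 times that of old wild type (47.9 to 286). For both genes every young wild type library stood above every other library, as in 2.75% of all tested genes. No other library reached 10 normalised counts of either gene, so the filter on low values (at least 10 in 3 libraries) fixed this order.

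Among the patterning genes, tll varied least over the young wild type libraries. It rested on 12, 20 and 16 reads there, and the counting intervals were wider than that spread. It had 14.6, 16.0 and 15.7 normalised counts in the young wild-type flies, 1.95, 0.879 and 0 in young mutant flies, and was at 0 in all 6 old libraries. On the floor of 3 reads tll was 13.7-fold higher in young than in old wild-type flies, and the lower end of its exact counting interval was 10.7. In young wild-type flies tll was 16.3 times its level in young mutant flies (5.25 to 81.7). sna had 24.4, 35.1 and 10.8 in young wild-type flies, 1.95, 0 and 0 in young mutant flies, 2.39, 3.82 and 3.97 in old wild-type flies, and 3.72, 0.996 and 0.807 in old mutant flies. sna kept 1 to 4 reads in every old library, so its ratio of young to old wild type, 7.12 (3.56 to 16.2), was lower than its ratio to young mutants, 38.1 (10.2 to 321), and these intervals overlapped.

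gt was the only member with a level above 5 normalised counts in every library. It had 41.5, 39.1 and 28.5 in young wild-type flies, 16.6, 11.4 and 12.2 in young mutant flies, 13.1, 14.3 and 18.5 in old wild-type flies, and 5.58, 17.9 and 16.1 in old mutant flies. Every young wild type library stood above the other 9 libraries, as in 2.75% of all tested genes, and the members were chosen on the young groups. The pooled young wild type level of gt was 2.71 times that of young mutants (1.89 to 3.97) and 2.39 times that of old wild type (1.65 to 3.52). The 3 other groups overlapped one another.

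prd did not share the pattern of the other 9. It had 20.7, 44.7 and 2.95 normalised counts in the young wild-type flies and 14.7, 1.76 and 2.03 in young mutant flies, with 0 to 1.86 in the old libraries. Its 3 high libraries were those with male transcripts, wild type young replicates 1 and 2 and mutant young replicate 1. In the young libraries without male transcripts it had 3 reads in wild type and 4 in mutants, a ratio of 1.56 (0.229 to 9.24). prd is also known to be needed for the male accessory gland, and the part of male transcripts in its level was not tested.

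Male transcripts were present in 2 of the 3 young wild type libraries, so the members were also read without them. In wild type young replicate 3 the member sum was 422 beside a male sum of 182, whereas in mutant young replicate 1 it was 45.9 beside a male sum of 7797. The library with the most male transcripts, wild type young replicate 2, also had the highest member sum. All 10 members stood higher in wild type young replicate 3 than in the 8 other libraries without male transcripts, a pattern that 7.31% of all tested genes showed. For the 8 members that reached 10 normalised counts in the 3 young wild type libraries alone, the filter of the tested genes fixed this order. For prd it was 2.95 against at most 2.03. Wild type young replicate 3, a single library, was set against the pair of young mutant libraries without male transcripts. With 3 reads over that pair as the floor, bnk was 47.9-fold higher, Tom 34.0-fold, Elba3 32.0-fold, halo 14.6-fold and sna 7.64-fold. The lower ends of their exact counting intervals were smaller, at 37.9, 26.7, 25.0, 10.9 and 5.23. CG10035, with 1 read in those mutant libraries, had a ratio of 288 (50.8 to 11439), and gt of 2.42 (1.37 to 4.30).

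**Figure D2:**
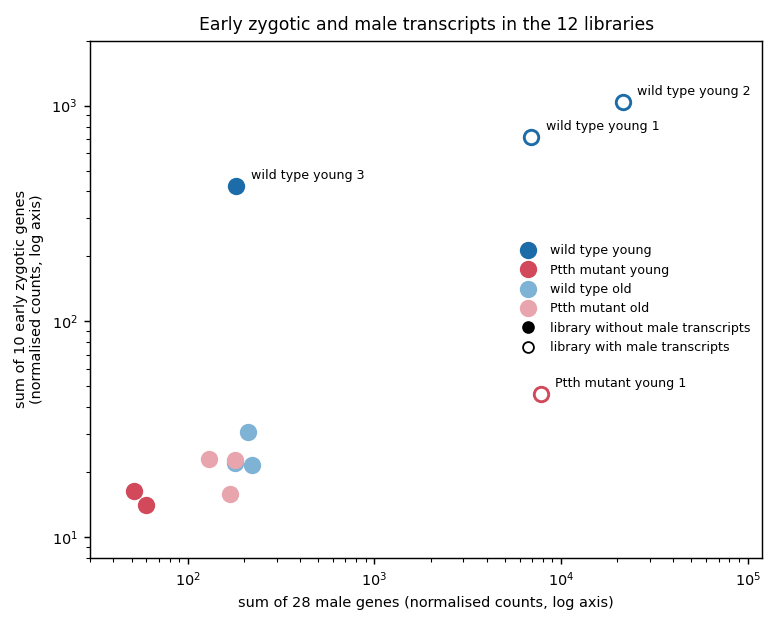
Sum of the 10 early zygotic genes against the sum of 28 male genes in each of the 12 libraries, both in normalised counts on log axes. Wild type young replicate 3 lies at 422 with a male sum of 182, and mutant young replicate 1 lies at 45.9 with a male sum of 7797.

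The members were chosen on the contrast of genotypes at the young age, so counts over them are given with the background and nothing is read from them. In 9 of 10, all but prd, every young wild type library was above every young mutant library, which held for 13.7% of the 11403 tested genes. In 10 of 10 every young wild type library was above every old wild type library (11.6% of tested genes), and in 9 of 10 they were above all 9 other libraries (2.75%). A gene was tested where at least 3 libraries reached 10 normalised counts. All 10 members passed, 8 of them through the 3 young wild type libraries alone, which had to differ, prd through 2 of those and mutant young replicate 1, and gt through 11 libraries. In the values of the 8 outside young wild type, 38 of 72 were 0 and 68 of 72 rested on at most 3 reads.

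The 3 young wild type libraries differed among themselves, and the ratios between them are a description with intervals for counting error only. Elba3 was 6.19 times higher in replicate 2 than in replicate 1 (95% exact counting interval 3.85 to 10.5), halo 3.45 times (2.31 to 5.32), bnk 3.22 times (2.17 to 4.95) and Bsg25A 3.21 times (2.22 to 4.76). For Tom the ratio was 0.77 (0.60 to 0.98) and for CG10035 0.82 (0.70 to 0.97), on the other side of 1. The intervals of the first 4 genes did not overlap those of Tom and CG10035. tll (1.09, 0.51 to 2.44), gt (0.94, 0.60 to 1.505) and sna (1.44, 0.83 to 2.58) had intervals that included 1.

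The make-up of the member reads also varied. CG10035 held 45.2% of them in replicate 1 (95% Clopper-Pearson interval 41.1 to 49.4), 25.6% in replicate 2 (23.2 to 28.04) and 32.1% in replicate 3 (27.7 to 36.7). Elba3 held 3.24% in replicate 1 (1.96 to 5.02), 13.8% in replicate 2 (11.99 to 15.8) and 10.7% in replicate 3 (7.94 to 14.01). Replicate 3, the library without male transcripts, was the lowest of the 3 for Tom, CG10035, halo, sna, prd and gt, and replicate 1 was the lowest for bnk, Bsg25A, Elba3 and tll.

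Ratios on both sides of 1 were also found among other embryonic genes whose young wild type mean was over 5 times their mean in young mutant replicates 2 and 3. The blastoderm genes Z600 and term were higher in replicate 2 than in replicate 1, at 2.45 times (1.39 to 4.56) and 2.65 times (1.59 to 4.64). So were scw, which encodes a BMP-type ligand, at 9.37 times (2.998 to 47.2) and eve, a pair-rule gene, at 11.1 times (2.85 to 95.5). nullo, a gene of cellularisation, had 31 reads in replicate 2, 8 in replicate 3 and none in replicate 1. The Bearded family genes Ocho (0.53, 0.30 to 0.92) and Brd (0.57, 0.30 to 1.07) and the neuroblast gene mira (0.83, 0.69 to 1.00) lay at or below 1, as Tom did. Their lists were not uniform, since E(spl)malpha-BFM of the Bearded family (1.25, 0.73 to 2.19) and the neural gene sc (2.35, 0.84 to 8.11) lay above 1, with intervals that included 1. These ratios compare single libraries, so they have no replicate check.

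**Figure D3:**
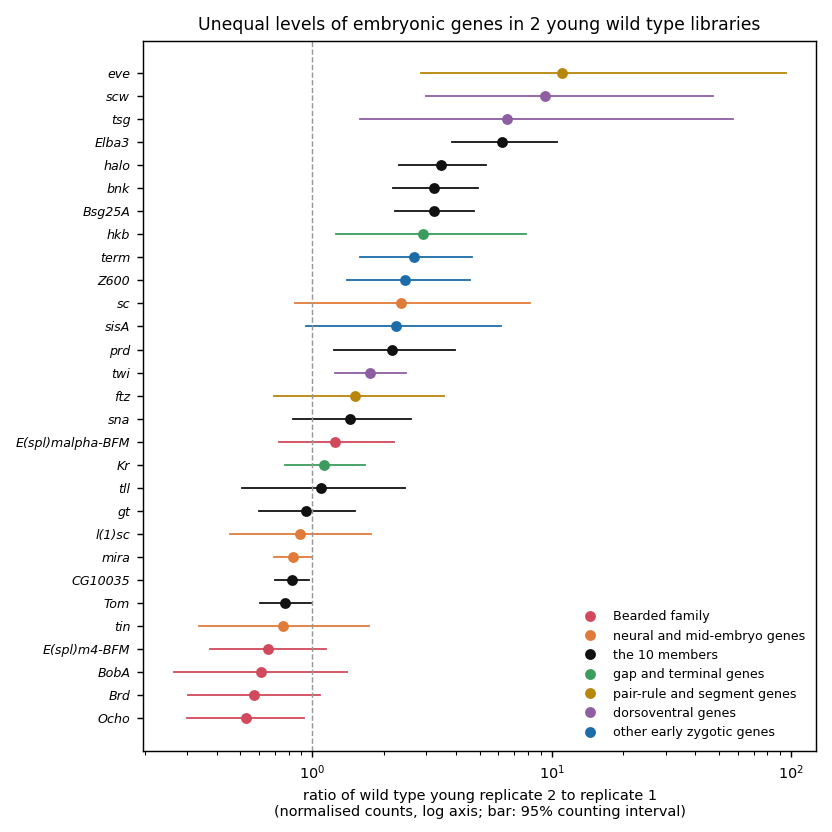
Ratio of wild type young replicate 2 to replicate 1 (normalised counts, log axis) for the 10 members and for embryonic genes whose young wild type mean was over 5 times their mean in young mutant replicates 2 and 3 and that had at least 20 reads in both libraries together. Points are ratios and bars are 95% counting intervals. Elba3, halo, bnk and Bsg25A lie at 3.21 to 6.19, and Tom, CG10035, Brd and Ocho lie below 1.

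Levels of different genes were compared per length, as RPKM (reads per kilobase of exon per 1000000 reads), given as mean ± SD over the 3 young wild type libraries. CG10035 stood first with 6.18 ± 2.39, followed by Tom with 4.93 ± 2.43, halo with 4.30 ± 3.93, bnk with 3.24 ± 1.77, Bsg25A with 2.51 ± 1.74 and Elba3 with 2.19 ± 1.96. The patterning genes came after these, gt with 0.918 ± 0.161, sna with 0.629 ± 0.319, prd with 0.377 ± 0.344 and tll with 0.354 ± 0.0182. In none of the 9 neighbouring pairs of this order did the gap exceed the larger SD of the pair. That SD is over libraries and leaves out that the genes share them. In each of the 3 libraries CG10035 stood above Tom, bnk above Bsg25A, Bsg25A above Elba3, gt above sna and sna above prd. The other neighbouring pairs changed places between libraries, and the orders were not tested. In replicate 2 halo stood first at 8.81 RPKM, ahead of CG10035 at 6.73. By normalised count, without regard to length, halo would take rank 6 and not 3, and Bsg25A rank 3 and not 5.

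At the old age only gt could be tested with meaning, since the old libraries did not choose the members but held at most 4 reads each of any of the other 9, so a difference in those was not detectable at this depth. The level of gt was 15.3 ± 2.84 normalised counts in old wild-type flies and 13.2 ± 6.68 in old mutant flies, a log2 difference of -0.33 ± 0.41 (SE, limma, adjusted p = 0.818). sna had 3.39 ± 0.872 and 1.84 ± 1.63 normalised counts in the same groups, and CG10035 had 2.28 ± 2.05 and 2.34 ± 1.18, given without a test. edgeR and DESeq2 on recovered reads did not call gt either. Of all tested genes 1.46% were called higher and 2.71% lower in old mutant flies. Without mutant old replicate 1 the sign of gt turned, to 0.16.

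With age, the 2 genotypes are given side by side, since they use the libraries on which the members were chosen. In wild type, the member sum went from 422 to 1038 in young flies to 21.5 to 30.5 in old flies, and in mutants from 14.1 to 45.9 to 15.8 to 22.9. In mutants the pooled ratio of old to young was 0.99 for gt (0.64 to 1.55), 0.47 for Tom (0.077 to 2.22) and 3.79 for CG10035 (0.757 to 36.7), all with intervals that included 1. For prd it was 0.10 (0.011 to 0.41), where 15 of the 19 young reads came from the library with male transcripts.

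Other genes known from the embryo were followed as 7 lists, with 79 genes in the table and 55 that passed the filter. At the young age 18 of the 55 were called lower in mutants and none higher (limma, adjusted p under 0.05 and fold change over 1.5), beside 3.78% of all tested genes called lower and 1.03% higher. Of the 18, Brd, Ocho and term reached 10 normalised counts in young wild type libraries alone and so had to differ, and 15 of the other 52 were called. Of the 55, 50 had a log2 difference below 0, with a median of -0.48 against -0.02 over all tested genes. edgeR called 14 of them and DESeq2 17. Under quantile normalisation 39 of the 55 were below 0 and 4 were called. Leaving out the 3 libraries with male transcripts left 2 called lower, Brd and Ocho, and thus none of the 52 (10 had an unadjusted p under 0.05, with a median of -0.22). The count was 3 without wild type young replicate 1 or 2, 30 without wild type young replicate 3, and 5 without mutant young replicate 2 or 3. It was 2 with a model of the young groups alone.

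The Bearded family, small antagonists of Neuralized like Tom, had 3 tested genes, of which Brd and Ocho passed the filter through young wild type alone and are given without a test. Brd had 29.3, 16.7 and 10.8 normalised counts in the young wild-type flies and 0 in each young mutant library. Ocho had 37.8, 19.9 and 10.8 against 0.977, 0.879 and 0. E(spl)malpha-BFM had 26.8, 33.5 and 30.5 against 7.82, 8.79 and 3.05 and was called lower (log2 difference -2.14 ± 0.41, limma, adjusted p = 0.00880), and unlike Tom it was also high in old wild-type flies, at 20.99 to 34.4. Every young wild type library of E(spl)malpha-BFM stood above every young mutant library, as in 13.7% of all tested genes. For Brd and Ocho the filter fixed such an order.

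Of the 5 other early zygotic genes tested, term also passed through young wild type alone and is given without a test, with 23.2, 61.4 and 18.7 normalised counts in the young wild-type flies and 0, 0 and 1.02 in young mutant flies. The other 4 tested, among them slam, Elba2 and insv, had at least 963 normalised counts for those 3 in every library and were not called. Of the 8 gap and terminal genes 3 were called lower: Kr, the central gap gene, with 56.1, 63.0 and 34.4 against 10.7, 7.04 and 7.11, and ems and D. Kr had a log2 difference of -2.47 ± 0.55 (limma, adjusted p = 0.0193). Of the 8 pair-rule and segment genes run, slp1 and en were called lower, and of the 18 dorsoventral genes twi, dpp and tld.

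twi, the mesoderm activator that works beside sna, had 59.8, 103.7 and 27.5 normalised counts in the young wild-type flies and 22.5, 9.67 and 9.15 in young mutant flies, a log2 difference of -2.05 ± 0.55 (limma, adjusted p = 0.0424). Of the 5 neural and mid-embryo genes sc, sage and mira were called lower, mira with 255, 211 and 105 against 44.0, 34.3 and 36.6 (-2.20 ± 0.30, adjusted p = 8.94e-04). Of the 8 Hox genes lab and Dfd were called lower. mira also had 46.5 to 117 normalised counts in the old libraries, unlike bnk or Elba3.

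Of the 79 embryonic genes, 25 had under 3 normalised counts in both young mutant libraries without male transcripts, with Brd, Ocho, term and sc among them. Z600 had 19.5, 47.9 and 9.82 in young wild-type flies and at most 1.02 in any other library. l(1)sc, a proneural gene, had 20.7, 18.3 and 9.82 in young wild-type flies and at most 2.39 elsewhere. In old wild-type flies sc stood highest of the 25, with 11.9, 9.54 and 9.27, beside 1.86, 1.99 and 0.807 in old mutant flies. It was not called there (log2 difference -2.17 ± 0.72, limma, adjusted p = 0.119), but was in a limma model of the old groups alone (adjusted p = 0.0130). Leaving out the libraries with male transcripts, all of them young, changed no old value and left the log2 difference at -2.17. Every young wild type library was above all 9 others for 28 of the 79 genes. The share of all tested genes, 2.75%, is not a like share, since only 55 of the 79 passed the filter.

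**Figure D4:**
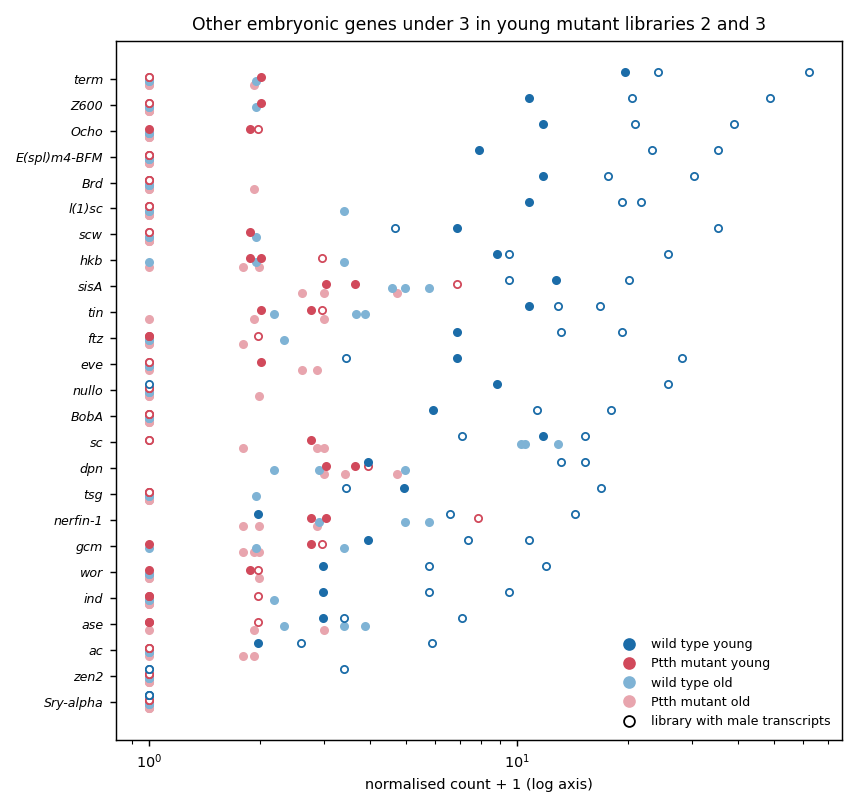
Normalised count plus 1 (log axis) in every library for the 25 other embryonic genes that had under 3 normalised counts in young mutant replicates 2 and 3. Colours mark the 4 groups, open circles mark the libraries with male transcripts, and genes are ordered by their young wild type mean. Z600 reaches 47.9 in young wild type and at most 1.02 in any other library.

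At the other contrasts the embryonic lists held fewer calls. With age in wild type 8 of the 55 were called lower in old flies, namely Kr, D, en, twi, pnr, term, Brd and Ocho (the last 3 again through young wild type alone), and none higher, beside 2.17% and 0.886% of all tested genes (fold change over 2). The count was 3 without wild type young replicate 1, 12 without wild type young replicate 3, and 5 and 4 without wild type old replicates 1 and 2. Without the libraries with male transcripts Brd, Ocho and term were called. With age in mutants none of the 55 was called by limma, 6 had an unadjusted p under 0.05, and edgeR and DESeq2 called none, beside 0.789% of all tested genes called higher and 1.02% lower. For genotype at the old age limma called none, 9 had an unadjusted p under 0.05, edgeR called none and DESeq2 called sage.

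Lists of earlier and later stages were followed beside these. The 18 maternal genes, RNAs that the ovary loads into the egg such as bcd, osk and nos, all had a log2 difference above 0 in young mutant flies, with a median of 0.28 (17 of 18 above 0 under quantile normalisation or TMM scaling), as 5399 of all 11403 tested genes did. Without the libraries with male transcripts 16 of the 18 were above 0, with a median of 0.12. None of the 18 was called by limma, edgeR or DESeq2, and 12 had an unadjusted p under 0.05. Their sum was 85578 to 114937 normalised counts in the young wild-type flies and 112339 to 127510 in young mutant flies, ranges that overlapped. The 15 larval cuticle genes, made by the late embryo and larva, summed to 8.88 to 44.0 in all 12 libraries, and none of them passed the filter. In young wild type they summed to 20.7, 23.9 and 14.7, inside the range of the young mutants or below it, so the high level of the early genes had no counterpart in this list. Bearded family genes summed to 73.7 to 168 in young wild-type flies and at most 38.4 elsewhere.

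The genes whose pattern over the 12 libraries was most like that of the members, by Pearson's r with the mean standardised profile of the 10, were SNCF (0.98), CG14317, CG4440, Sr-CII, CG13427, CG7271, Ocho, dan, Brd and CG8960 (0.96). The 12 points share their libraries with the members, and the values describe these libraries only. SNCF had 37.8, 85.3 and 27.5 normalised counts in the young wild-type flies and 1 read in the other 9 libraries, and CG14317 had 64.7, 208 and 53.1 and also 1 read elsewhere. dan differed from the rest of the 10 in keeping 3.58 to 11.7 normalised counts in every library outside young wild type. Over the 9 libraries without male transcripts 9 genes tied at 0.99 ahead of SNCF (0.98). All 9, p-cup and Sfp35C among them, had only 1 to 3 reads in wild type young replicate 3 and none in the other 8, so their rank rests on those reads.

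The members lie on chromosomes 2L, 3L, 3R and X, and 2 of them are close neighbours (positions from a later Ensembl annotation of the same Release 6 assembly). Bsg25A, on 2L from 4683052 to 4684461 (minus strand), and Elba3, from 4687511 to 4688956 (plus strand), are 3049 bp apart. Tom, on 3L from 14969344 to 14970306, lies 2360 bp from Brd and 4541 bp from Ocho, with BobA 23.2 kb away, and these are genes of 1 family. CG7271, among the 10 most alike genes, lies 2137 bp from term. No other members lie within 50 kb of each other.

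All 10 members are annotated with 1 or 2 exons, which the choice of members did not use. bnk, Elba3, Tom, halo and sna are single-exon genes. At most 2 exons were annotated for 100% of the members, for 90.0% of the 10 most alike genes and for 54.4% of the other embryonic genes, against 30.4% of the 10958 tested genes annotated as protein-coding. Of the embryonic lists, the Bearded family also had 100%, the other early zygotic genes 80.0% and the neural and mid-embryo genes 76.9%. Gap and terminal genes had 66.7%, pair-rule and segment genes 50.0%, dorsoventral genes 31.8% and Hox genes 0%. Exonic length of the members ran from 616 bp in halo to 2695 bp in prd with a median of 1557 bp, against a median of 1986 bp over tested genes. The longest member spans 2833 bp of the genome, against a median span of 2571 bp over tested genes. These are shares of an annotation and carry no test.

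**Figure D5:**
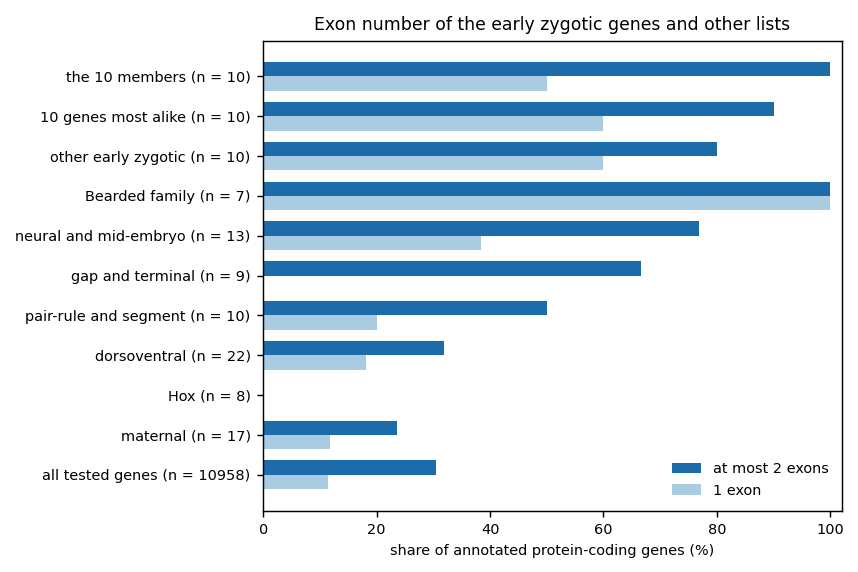
Share of annotated protein-coding genes (%) with at most 2 exons (dark bars) and with 1 exon (light bars) for the 10 members, for other gene lists and for all tested genes, with the number of genes beside each name. The members and the Bearded family reach 100% for at most 2 exons, and all tested genes reach 30.4%.

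3 of the members overlap another gene, and no source used here says if reads were counted by strand. bnk lies inside mesh on the opposite strand, and mesh had 1934 to 8667 normalised counts in every library, including those where bnk was at 0. Bsg25A overlaps CG11929 on the opposite strand. CG11929 had 36.6, 152 and 5.89 normalised counts in the young wild-type flies and 36.2 in mutant young replicate 1, where Bsg25A was at 0. prd overlaps the antisense gene asRNA:CR44592, which had at most 1.22 normalised counts.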

How the data were processed

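Poly(A) RNA of whole females had been sequenced. The labels describe the same pair of library preparations for each sample, so a preparation batch could not be assigned. Per the submitters' processing notes, the authors used STAR 2.7.3a, BDGP6, HTSeq 0.11.2 and DESeq2 1.20.0. What they deposited is a signal per gene and library, the read count over the library's size factor, and 0 sample columns stayed unmapped. Each library's values were multiples of 1 step (0.798 to 1.32), whole within 0.01 for 100% of values, and this gave whole reads. The submitters call the samples of a group biological replicates. Separate cultures are not stated, and p-values thus reflect the scatter of these samples only. Groups follow the labels, while the study names the genotypes and ages differently.

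Genes reaching 10 normalised counts in 3 or more of 12 libraries (11403 of 17714) entered limma 3.58.1 (R 4.3.3, trended eBayes, two-sided, Benjamini-Hochberg) as log2(value + 1), a scale that shrinks changes of low genes, with the 4 groups in 1 model. A call required adjusted p below 0.05 with a fold above 1.5 for genotype and above 2 for age. edgeR 4.0.16 (TMM, quasi-likelihood) and DESeq2 1.42.0 were run on the recovered reads, and the limma fit was tested on simulated data. Ratios pooled the reads of a group, with exact binomial intervals (SciPy 1.17.1).

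The members and lists were chosen with earlier results of these data known. Named genes were all 10 members, up to 4 tested genes of each list with the largest SD over libraries, and the 10 genes most alike over 12 and over 9 libraries. Other names (slp1, dpp, pnr, Dfd, nullo, Z600, scw, eve, l(1)sc, BobA, osk, nos, Ptth and genes overlapping a member) were picked after their values were seen. Positions and exons are from Ensembl release 115, where all members were found.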

Additional observations from a re-analysis of the deposited data

How the results depend on the processing

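gt was not called for genotype at the old age under any alternative run (adjusted p at least 0.685). It ranged from -0.61 to 0.16 on the log2 scale with single libraries left out, and only without mutant old replicate 1 was it above 0 (0.16, adjusted p = 0.941). The cause of the shifts below was not tested. Of 11403 genes, 475 were called for genotype at the old age (297 to 512 with single libraries left out, the lowest without wild type old replicate 3, and 309 without mutant old replicate 2). The young age gave 549 (118 higher, 431 lower), 297 to 2265 with single libraries left out (2265 without wild type young replicate 3, and 297, 345, 341 and 300 without wild type young replicates 1 and 2 and mutant young replicates 2 and 3), 234 in a model of the 2 groups alone, 115 (41 and 74) without the libraries with male transcripts, and 171 higher and 290 lower under quantile normalisation. Age in wild type gave 348 (101 higher, 247 lower), 264 to 1515 with single libraries left out (1515 without wild type young replicate 3), 885 (110 and 775) with DESeq2, 130 and 103 without the libraries with male transcripts, and 204 and 153 under quantile normalisation. Age in mutants gave 206 (90 and 116), 137 under quantile normalisation, and 150 and 97 without the libraries with male transcripts. Of the 55 other embryonic genes, 18 were called lower in mutants at the young age, 3 to 30 with single libraries left out, 4 under quantile normalisation, and 2 in the model of 2 groups or without the libraries with male transcripts. At the old age 0 were called lower, 0 to 1 with single libraries left out, and 1 without a filter, with DESeq2, in the model of 2 groups or without the libraries with male transcripts. With age in wild type 8 were, 3 to 12 with single libraries left out, 21 without a filter, 5 with a mean of at least 10, 1 under quantile normalisation, 2 in the model of 2 groups and 3 without the libraries with male transcripts. Same-numbered libraries did not deviate together in all pairs of any comparison (correlations -0.870 to 0.879 at the young age), so the numbers were not taken as pairs. With the replicate block 446, 506, 336 and 199 genes were called in the order above, and 11 in place of 18 embryonic genes at the young age. Levels under about 3 reads limit all members but gt outside young wild type.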
